A study of Mus musculus with 12 samples.

Results

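The 6 genes described here are the poly- and mono-ADP-ribosyltransferase genes Parp1, Parp9, Parp10, Parp12 and Parp14 and the E3 ubiquitin ligase gene Dtx3l. They were taken by name from the 15986 genes in the count tables. Parp1 was included as a gene not known to respond to interferon, to be read beside the other members. All 6 passed the filter on low counts. They were measured by polyA RNA-seq in neutrophils from the bone marrow of wild-type mice and of Rab27a knockout mice, all labelled C57BL/6. Rab27a is a small GTPase that docks secretory granules at the plasma membrane. Cells were selected on magnetic beads with an antibody to Ly6G, a surface protein of mature neutrophils, and cultured in RPMI medium for 6 h at body temperature. Each genotype was cultured with 5 µM CpG-B, an oligonucleotide ligand of the endosomal DNA sensor TLR9, or without it (called vehicle in one label and untreated in another). There were 3 libraries in each of the 4 groups. The sources used here do not give the knockout allele, any pooling, or the age, sex and number of animals. The p-values therefore measure only how far these libraries spread, which may in part be technical.

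ADP-ribosyltransferases move ADP-ribose from NAD to proteins or nucleic acids. PARP1 makes long ADP-ribose chains at DNA breaks, whereas PARP10, PARP12 and PARP14 attach ADP-ribose units without building chains. PARP9 and PARP14 also carry macrodomains, which bind ADP-ribose, and PARP9 works in a complex with the ubiquitin ligase DTX3L. In many cell types Parp9, Parp10, Parp12, Parp14 and Dtx3l belong to the genes switched on by interferon.

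Libraries held 10928813 to 15513279 estimated counts. Rab27a itself was at 207 to 335 CPM (counts scaled to library size by the TMM method) in the wild-type libraries and at 94.9 to 129 CPM in the knockout libraries, with no overlap; the position of the deletion is not given, so this checks the labels only in part. The 12 neutrophil markers summed to 74200 to 116000 CPM. Knockout libraries that carry the same number stood apart together. The erythroid markers summed to 452 and 534 CPM in the 2 knockout libraries numbered 1, to 1890 and 1720 CPM in those numbered 2 and to 6220 and 6260 CPM in those numbered 3, against 4070 to 5350 CPM in wild-type libraries. The B lineage markers followed the same order, with 6.61 and 7.5 CPM, 29.7 and 35.1 CPM, and 92.5 and 104 CPM, against 27 to 43.1 CPM in wild-type libraries. Of the 8 erythroid markers, only the globin gene Hbb-bt was called between genotypes. It was lower in the knockout without CpG (log2 -7.56, edgeR adjusted p = 7.17e-06) and with it (log2 -6.95, edgeR adjusted p = 1.12e-05). Its share of the erythroid sums is not given here, so the sums of the 2 genotypes are not a like measure. In bulk RNA, fewer cells of a type and less RNA per cell cannot be told apart.

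Per length, in the deposited TPM values, Parp10 had the highest level of the 6 genes in unstimulated wild-type cells, at 54.3 to 62.8 TPM. Parp9 was at 20.2 to 25.3 TPM, Parp14 at 10.8 to 16.7 TPM and Dtx3l at 8.9 to 14.7 TPM. Parp12 was at 4.77 to 6.34 TPM and Parp1 at 3.19 to 4.64 TPM. The order of these levels was the same in all 3 unstimulated wild-type libraries, although the ranges of Parp14 and Dtx3l overlapped. With CpG, Parp14 stood above Parp9 in all 6 libraries, and in the 3 knockout libraries with CpG, at 60.8, 104 and 127 TPM, it also stood above Parp10, at 54.5, 93.5 and 85.9 TPM.

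After CpG, 4 of the 6 genes rose in wild-type cells and 4 of 6 rose in knockout cells, in both cases Parp14, Dtx3l, Parp9 and Parp12. Parp10 and Parp1 did not pass the test in either genotype. A gene was called at an adjusted p of at most 0.05 in edgeR's quasi-likelihood test over the 10802 genes tested. For comparison, 4.74% of all genes rose in wild-type cells and 7.57% in knockout cells. The median log2 difference of the 6 genes was 1.04 in wild-type and 1.53 in knockout cells, against -0.01 over all genes tested in each. All 3 CpG libraries lay above all 3 unstimulated ones for those same 4 members in each genotype, which held for 14.5% of all genes in wild-type and 12.7% in knockout cells.

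**Figure D1:**
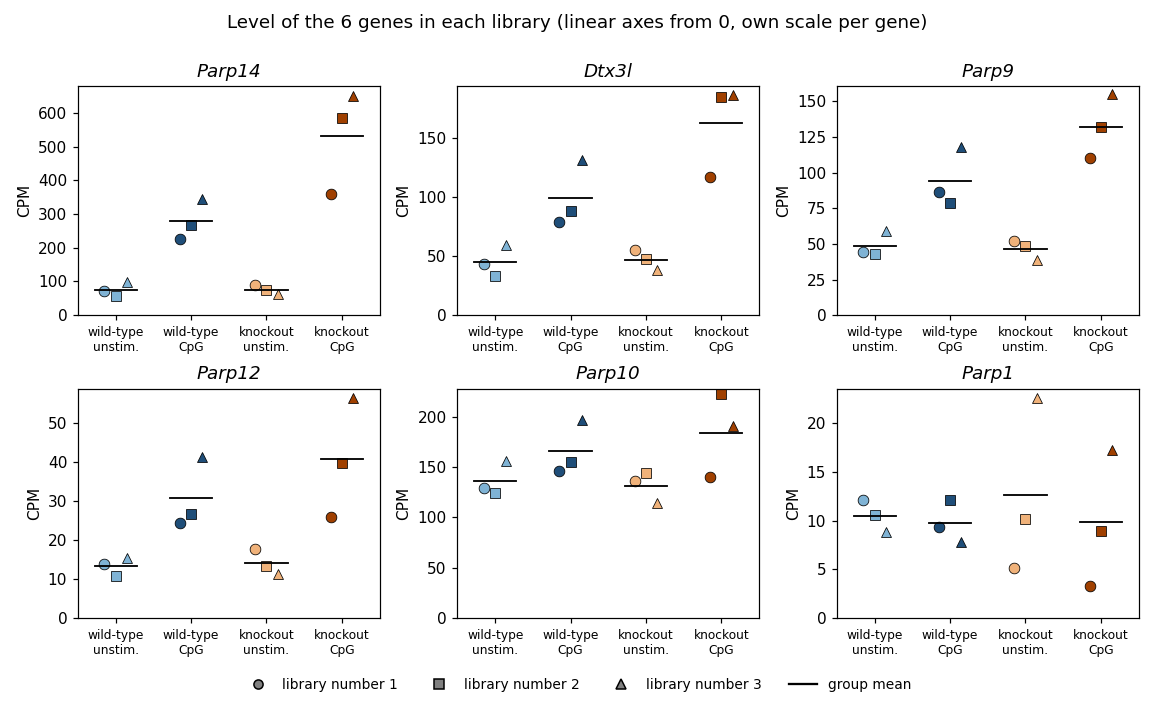
CPM of the 6 genes (linear vertical axes that start at 0, with a separate scale for each gene) in the 12 libraries, by genotype and treatment. Each symbol is a library, its shape gives the library number and the horizontal bar is the group mean; for Parp14, Dtx3l, Parp9 and Parp12 the CpG libraries lie above the unstimulated ones of the same genotype, and for Parp10 and Parp1 the groups overlap.

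Parp14, a transferase with macrodomains, had the largest response of the 6. In unstimulated wild-type libraries 1, 2 and 3 it was at 70.6, 57.2 and 97.1 CPM, and with CpG at 225, 268 and 345 CPM. In the knockout it was at 89.5, 74.8 and 62.2 CPM without CpG and at 360, 584 and 650 CPM with it. All 6 CpG libraries were above all 6 unstimulated ones, and each knockout CpG library was above each wild-type CpG library. The rise was 3.73-fold in wild-type cells (log2 1.90, SE 0.25, edgeR adjusted p = 0.000258) and 7.04-fold in knockout cells (log2 2.82, SE 0.26, edgeR adjusted p = 5.62e-06).

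Dtx3l, the ubiquitin ligase partner of PARP9, was at 43.3, 32.9 and 59.2 CPM in unstimulated wild-type libraries and at 78.6, 87.9 and 131 CPM with CpG. Knockout libraries had 55.4, 47.1 and 38.5 CPM without CpG and 117, 184 and 186 CPM with it. The CpG and unstimulated groups did not overlap in either genotype, whereas wild-type library 3 with CpG reached above knockout library 1 with CpG. The rise was 2.19-fold in wild-type cells (log2 1.13, SE 0.25, edgeR adjusted p = 0.0138) and 3.46-fold in knockout cells (log2 1.79, SE 0.25, edgeR adjusted p = 0.000302). The wild-type call was lost without unstimulated wild-type 1, unstimulated wild-type 2 or wild-type CpG 3 (edgeR adjusted p = 0.0625, 0.0721 and 0.0626).

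Parp9, which lies beside Dtx3l on the opposite strand, was at 44.3, 43.0 and 59.2 CPM in unstimulated wild-type libraries and at 86.2, 79.0 and 118 CPM with CpG. The knockout libraries had 52.2, 48.5 and 38.6 CPM without CpG and 110, 132 and 155 CPM with it. The CpG and unstimulated groups did not overlap in either genotype. The rise was 1.93-fold in wild-type cells (log2 0.95, SE 0.18, edgeR adjusted p = 0.00634) and 2.85-fold in knockout cells (log2 1.51, SE 0.19, edgeR adjusted p = 9.99e-05). Most of this count was assigned to a predicted RefSeq transcript, which held 55.4 to 84.6% of it, whereas the curated transcript held 5.38 to 17.4%. With curated transcripts alone neither rise passed the test (wild-type log2 0.45, edgeR adjusted p = 0.693; knockout log2 0.99, edgeR adjusted p = 0.124).

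Parp12, a mono-ADP-ribosyltransferase with RNA-binding zinc fingers, had the lowest level per length of the 4 genes that rose. It was at 13.8, 10.6 and 15.3 CPM in unstimulated wild-type libraries and at 24.3, 26.5 and 41.1 CPM with CpG. Knockout libraries had 17.6, 13.2 and 11.2 CPM without CpG and 25.9, 39.6 and 56.4 CPM with it. Knockout library 1 had the highest level of its group without CpG and the lowest with it. The rise was 2.31-fold in wild-type cells (log2 1.21, SE 0.28, edgeR adjusted p = 0.0189) and 2.91-fold in knockout cells (log2 1.54, SE 0.28, edgeR adjusted p = 0.00223). The wild-type call was lost without unstimulated wild-type 1, unstimulated wild-type 2 or wild-type CpG 3 (edgeR adjusted p = 0.0652, 0.102 and 0.0881).

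Parp10, a mono-ADP-ribosyltransferase known to act in DNA damage tolerance and cell growth control, was at 129, 124 and 156 CPM in unstimulated wild-type libraries and at 146, 155 and 197 CPM with CpG. In the knockout it was at 136, 144 and 114 CPM without CpG and at 140, 223 and 191 CPM with it. The groups overlapped in both genotypes. The log2 difference was 0.28 in wild-type cells (SE 0.17, 95% interval -0.09 to 0.65, edgeR adjusted p = 0.491) and 0.49 in knockout cells (SE 0.17, 95% interval 0.12 to 0.86, edgeR adjusted p = 0.0896). The intervals given here are not adjusted for the number of genes. Parp10 was not called with CpG in either genotype. The name interferon-linked rests on background for Parp10, as it does for Parp9, Parp12, Parp14 and Dtx3l, since no library was treated with interferon. The knockout difference passed the test in 3 of 24 alternatives, of which the fit with genotype and number as a block is given in the last section. It passed without knockout CpG 1 (log2 0.66, edgeR adjusted p = 0.0157). It also passed without both knockout libraries numbered 1, an alternative chosen after seeing the data (log2 0.67, edgeR adjusted p = 0.033).

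Parp1, the DNA break sensor, was at 12.1, 10.6 and 8.82 CPM in unstimulated wild-type libraries and at 9.38, 12.1 and 7.77 CPM with CpG. In the knockout it was at 5.10, 10.2 and 22.6 CPM without CpG and at 3.32, 8.88 and 17.3 CPM with it. The groups overlapped in every comparison, and the knockout libraries spread more widely than the wild-type ones. The CpG difference was log2 -0.11 in wild-type cells (SE 0.51, 95% interval -1.21 to 1.00, edgeR adjusted p = 0.963) and -0.36 in knockout cells (SE 0.51, 95% interval -1.46 to 0.74, edgeR adjusted p = 0.767). The wild-type interval is wide enough to hold the difference seen in Parp9. Because numbered wild-type libraries deviated together, the fit with genotype and number together as a block is also given: it left the same 4 members called in wild-type cells, with 9.73% of all genes rising, and narrowed the wild-type interval of Parp1 to -0.43 to 0.20. In the knockout, the ratio of CpG to unstimulated CPM between libraries of the same number was below 1 for all 3 numbers, at 0.65, 0.872 and 0.764.

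**Figure D2:**
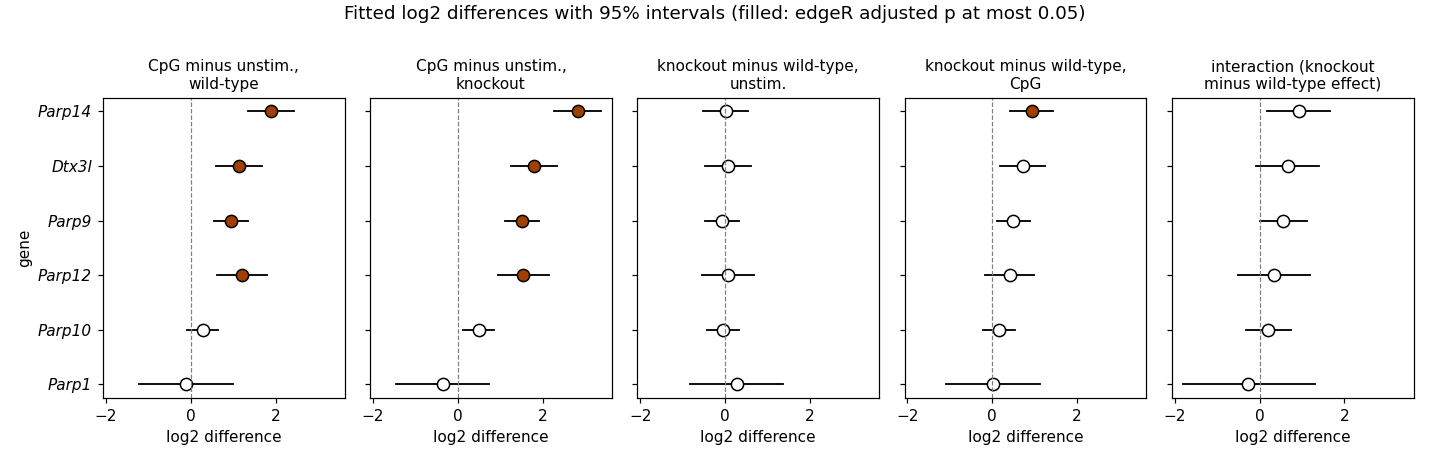
Fitted log2 differences of the 6 genes in the 5 comparisons, with points for the estimates and lines for 95% intervals (horizontal axes in log2 units, shared by all panels). Filled points passed an edgeR adjusted p of 0.05; these are Parp14, Dtx3l, Parp9 and Parp12 after CpG in each genotype, and Parp14 between the genotypes with CpG.

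The summed markers of monocytes and macrophages were also higher with CpG in each genotype. Their 12 genes summed to 873 to 916 CPM in unstimulated wild-type libraries and 1340 to 1420 CPM with CpG, and to 693 to 732 CPM and 1320 to 1800 CPM in the knockout. Of the 12, 2 rose in each genotype, Csf1r (log2 1.48 and 2.33), the receptor for macrophage growth factor, and Adgre1 (log2 2.10 and 2.74), a macrophage surface protein. The median difference over the 12 was log2 0.14 in wild-type and 0.33 in knockout cells, with 8 estimates above 0 in each genotype. No gene of the list was at 0 in all libraries. The part of these cells in the CpG response of the 6 genes was not tested.

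Without CpG, no difference between the genotypes was detected in these genes. None of the 6 passed the edgeR test between unstimulated knockout and wild-type cells, against 4.75% of all genes in either direction, and 0 passed at an unadjusted p under 0.05 or in DESeq2. The log2 difference was 0.01 for Parp14 (95% interval -0.51 to 0.54), 0.06 for Dtx3l (-0.48 to 0.60), -0.07 for Parp9 (-0.47 to 0.33), 0.08 for Parp12 (-0.54 to 0.69) and -0.05 for Parp10 (-0.42 to 0.32). The interval of Parp1 was wider, at -0.83 to 1.37 around 0.27. Differences within these intervals were not detectable with this spread between libraries.

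With CpG, Parp14 was the only member of the 6 that passed the test between genotypes, at 1.90-fold higher in the knockout (log2 0.93, SE 0.24, edgeR adjusted p = 0.0479). For comparison, 1.7% of all genes were called higher in the knockout with CpG, and for 10.3% all 3 knockout libraries lay above all 3 wild-type ones. The estimate was higher in the knockout for Dtx3l (log2 0.72, SE 0.24, edgeR adjusted p = 0.133), Parp9 (log2 0.49, edgeR adjusted p = 0.172), Parp12 (log2 0.41, edgeR adjusted p = 0.454) and Parp10 (log2 0.16, edgeR adjusted p = 0.686), none of which passed. DESeq2 also called Dtx3l (log2 0.74, DESeq2 adjusted p = 0.0484). With the curated Parp9 transcript alone the Parp9 difference was log2 1.11 with CpG (edgeR adjusted p = 0.146) and 0.57 without it (edgeR adjusted p = 0.516). The macrophage marker Csf1r was also higher in the knockout with CpG (log2 0.63, edgeR adjusted p = 0.00986), the only 1 of the 12 monocyte and macrophage markers that passed there. The median difference over the 12 was log2 -0.27, with 4 estimates above 0. The 12 markers summed to 1380, 1340 and 1420 CPM in wild-type CpG libraries and to 1800, 1580 and 1320 CPM in knockout ones. In the knockout the order of the sum ran opposite to that of Parp14. The part of these cells in the genotype difference was not tested. Parp14 lay close to the threshold: it was called in 10 of 23 alternatives, with adjusted p from 0.00318 to 0.236, and log2 differences from 0.77 to 1.17. The call was lost when any of 8 libraries was left out, namely unstimulated wild-type 1, wild-type CpG 1 and 2, each unstimulated knockout library and knockout CpG 2 and 3, and also without both knockout libraries numbered 3 (log2 0.77, edgeR adjusted p = 0.0748). Without both numbered 1, also chosen after seeing the data, Parp14 (log2 1.17, edgeR adjusted p = 0.00878) and Dtx3l (log2 0.93, edgeR adjusted p = 0.0495) passed.

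Whether the CpG response itself differed between genotypes was tested as an interaction. In edgeR 0.0% of all genes passed, and none of the 6; at an unadjusted p under 0.05 there were 365 genes (3.38%), of which Parp14 was the only member. The difference between the CpG responses was log2 0.92 for Parp14 (95% interval 0.18 to 1.65), 0.66 for Dtx3l (-0.09 to 1.41), 0.56 for Parp9 (-0.00 to 1.12), 0.33 for Parp12 (-0.51 to 1.18), 0.21 for Parp10 (-0.31 to 0.73) and -0.26 for Parp1 (-1.81 to 1.3). DESeq2 called 3 genes of all and none of the 6. The test therefore does not show a larger response in the knockout for any of these genes.

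The ratio of CpG to unstimulated CPM between libraries of the same number shows where the knockout spread lay. For Parp14 it was 3.19, 4.68 and 3.56 in wild-type numbers 1, 2 and 3, and 4.02, 7.82 and 10.4 in the knockout. Dtx3l had ratios of 1.81, 2.67 and 2.21 in wild-type and 2.12, 3.92 and 4.84 in the knockout. For Parp12 the ratios were 1.76, 2.49 and 2.69 against 1.47, 3.01 and 5.02. In each of these genes, and in Parp9, knockout number 1 had the smallest and knockout number 3 the largest ratio of its genotype. The wild-type ratios of Parp9 were close together, at 1.95, 1.84 and 1.99, and those of Parp1 lay from 0.65 to 1.14 over both genotypes.

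**Figure D3:**
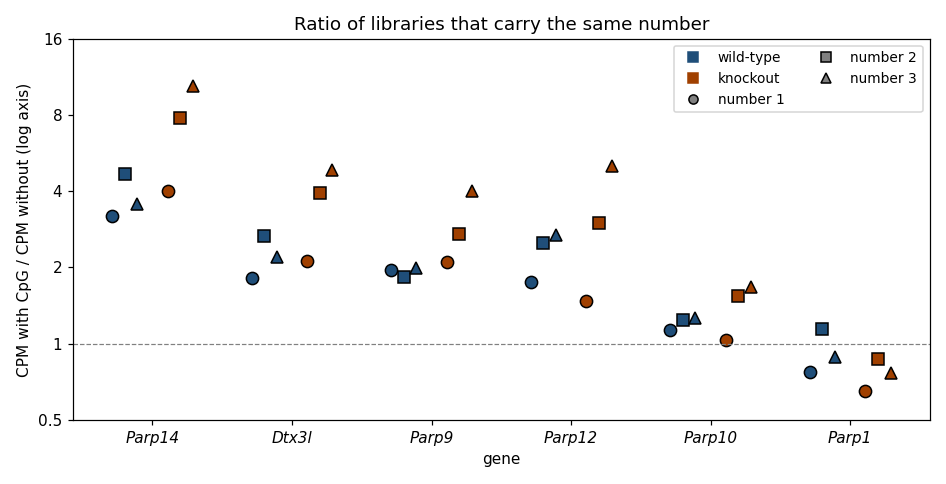
CPM with CpG divided by CPM without CpG for libraries that carry the same number (logarithmic vertical axis, dashed line at 1), by gene and genotype; each symbol is a ratio of 2 libraries. Knockout ratios of Parp14 spread from 4.02 to 10.4 and wild-type ones from 3.19 to 4.68.

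The order of the knockout libraries turned over with CpG in the 4 genes that rose. Without CpG, knockout library 1 was highest and library 3 lowest for each of them, and with CpG library 1 was lowest and library 3 highest. The B lineage and erythroid markers kept the order 1, 2, 3 in both conditions, so they ran against these genes without CpG and with them after CpG. Parp1 kept the markers' order in both. Over the 12 libraries the correlation of log2 CPM with the summed B lineage markers was 0.93 for Parp1 and 0.11 for Parp14. With the summed monocyte and macrophage markers it was -0.36 for Parp1, 0.89 for Parp14, 0.88 for Parp9, 0.84 for Dtx3l, 0.80 for Parp12 and 0.63 for Parp10. These values are given as a description over libraries that share groups and numbers. The part of B lineage or erythroid cells in the Parp1 level was not tested.

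**Figure D4:**
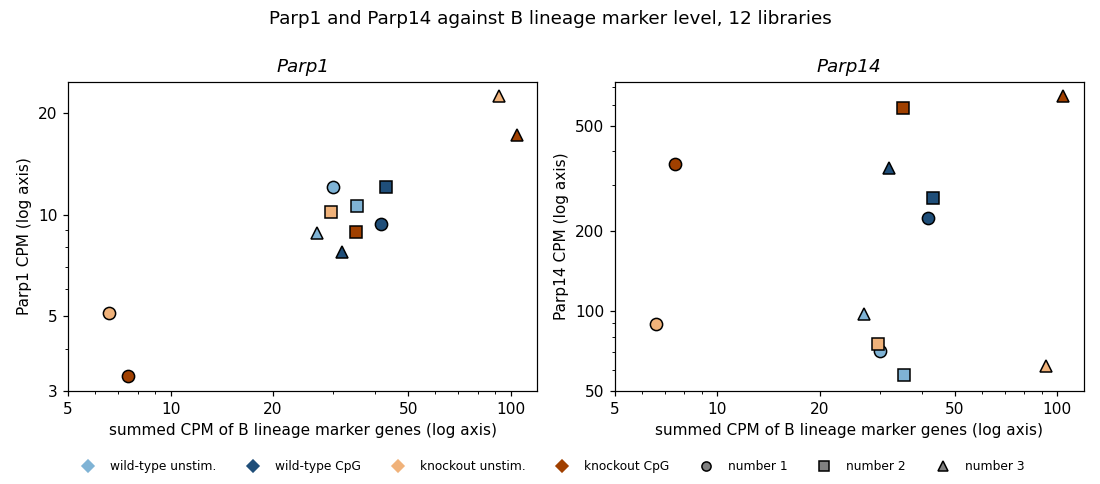
CPM of Parp1 (left) and Parp14 (right) against the summed CPM of the B lineage markers, with logarithmic axes; each symbol is a library, with color for group and shape for library number. Parp1 runs from 3.32 to 22.6 CPM along with the marker sum, and Parp14 is split by treatment.

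Parp14, Dtx3l, Parp9 and Parp12 varied together across libraries, also within groups. Over the 12 libraries the correlation of log2 CPM was 0.99 between Parp14 and Dtx3l, 0.98 between Parp9 and Dtx3l and 0.97 between Parp12 and Parp14. For deviations from the group means these values were 0.98, 0.91 and 0.93. Parp10 had lower values with those 4 genes, from 0.83 to 0.88 over the 12 libraries, and 0.77 to 0.89 for deviations from the group means. Parp1 ran from -0.24 to -0.09 with the other 5 over the 12 libraries. These are descriptions over libraries that share groups and numbers.

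The genes most like each member were sought among the 7913 genes that averaged 5 CPM or more, by the correlation of log2 CPM over the 12 libraries. For Parp9 they included Parp14 (0.987) and Dtx3l (0.984). For Parp14 they were the DNA exonuclease gene Trex1 (0.991), Parp9 and Dtx3l. Dtx3l was most like the schlafen gene Slfn8 (0.991), the transcription factor Stat2 (0.991) and the RNA sensor Ddx58 (0.987). Parp12 was most like Ifit1 (0.993), whose protein binds viral RNA, the RNA sensor Ifih1 (0.989) and Slfn8 (0.985). For Parp10 the values were lower, with the guanylate-binding gene Gbp7 at 0.945, Tent5a at 0.94 and Ifit3 at 0.925. Parp1 was most like the scaffold gene Akap12 (0.967), the B cell receptor gene Cd79b (0.966) and Tent5c (0.965), which ran from 1.74 to 23.0, 0.785 to 21.9 and 21.9 to 92.6 CPM.

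Parp14, Dtx3l and Parp9 are neighbors on chromosome 16, in that order apart from predicted genes, whereas Parp1 lies on chromosome 1, Parp10 on chromosome 15 and Parp12 on chromosome 6 (RefSeq, GRCm38.p6). Dtx3l is on the minus strand and Parp9 on the plus strand, and the genes overlap at their starts. Strandedness of the libraries is not given, so reads in the overlap cannot be told apart. RefSeq promoter windows were found for 3 of the 6 genes, Parp1, Parp12 and Dtx3l. They are shown because Parp12 and Dtx3l rose after CpG and Parp1 was not called. The 250 bases before the start site are printed 5′ to 3′ along the gene's strand, with each GAAA on either strand (so GAAA or TTTC) in capitals, the repeated unit of the interferon-stimulated response element. For Dtx3l only the 71 bases farthest from the start are printed, since the rest lies in annotated exons of Dtx3l or Parp9.
Parp12 (GRCm38.p6, chr6:39118350-39118599, minus strand): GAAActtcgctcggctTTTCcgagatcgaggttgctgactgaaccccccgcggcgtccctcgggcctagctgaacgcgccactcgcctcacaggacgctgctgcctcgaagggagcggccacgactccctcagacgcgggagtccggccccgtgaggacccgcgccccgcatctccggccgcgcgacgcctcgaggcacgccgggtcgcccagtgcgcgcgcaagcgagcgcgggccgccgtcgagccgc
Dtx3l (GRCm38.p6, chr16:35939207-35939277, minus strand): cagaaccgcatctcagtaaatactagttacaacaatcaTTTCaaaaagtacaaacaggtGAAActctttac
Parp1 (GRCm38.p6, chr1:180568641-180568890, plus strand): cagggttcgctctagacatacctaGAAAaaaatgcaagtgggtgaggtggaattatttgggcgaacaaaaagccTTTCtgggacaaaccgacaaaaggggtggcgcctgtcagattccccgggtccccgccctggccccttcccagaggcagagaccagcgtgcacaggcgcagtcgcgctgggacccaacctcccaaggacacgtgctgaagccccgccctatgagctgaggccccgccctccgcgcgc
Over the whole 250 bases, GAAA occurred 2 times in the Parp12 window, 3 times in that of Dtx3l and 2 times in that of Parp1. At least 1 occurrence was present in 86.4% of the 32851 promoter windows of that length, with a median of 2. The spaced pair GAAANNGAAA, the core of the response element, was found in none of the 3 windows and in 2.98% of all windows. TTCNNNGAA, the pattern of the gamma-activated site, was in none of the 3 and in 7.02% of all, and the NF-kB pattern GGGANNTTCC in none of the 3 and in 1.21% of all. Both strands were searched, and a GAAA inside a longer pattern counts in both. These counts describe letters in these windows alone.

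The count ratio of Parp9 to Dtx3l was on average slightly lower with CpG, a result that depended on single libraries. The ratio of their counts was 1.02, 1.31 and 1.00 in unstimulated wild-type libraries and 1.10, 0.899 and 0.902 with CpG. In the knockout it was 0.944, 1.03 and 1.00 without CpG and 0.939, 0.715 and 0.83 with it. The ratio was lowest in knockout libraries 2 and 3 with CpG, and the CpG and unstimulated groups overlapped in wild-type cells but not in the knockout, where 0.939 and 0.944 were the nearest values. The mean difference was log2 -0.23 (two-sided exact permutation test within genotypes, 400 assignments, p = 0.035, where the smallest possible p is 0.005). It missed the threshold when any of 6 libraries was left out (exact p from 0.055 to 0.09). With the curated Parp9 transcript alone the difference was -0.62 (exact p = 0.02), a size that rests on how reads were divided between Parp9 transcripts.

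Among the 16 PARP family genes listed, all tested, 3 rose after CpG in each genotype and none fell, and the 3 were Parp9, Parp12 and Parp14 in both. The family median was log2 0.14 in wild-type and 0.10 in knockout cells. Family genes outside the members that did not pass include Zc3hav1, an antiviral RNA-binding protein without transferase activity (log2 0.26 and 0.22), and the tankyrase genes Tnks (-0.09 and -0.12) and Tnks2 (-0.02 and -0.09). Between genotypes, 1 family gene besides Parp14 passed, and it is named here after its values were seen. Parp3, a DNA repair transferase, was at 7.05 to 16.7 CPM in unstimulated wild-type and 3.59 to 4.30 CPM in unstimulated knockout libraries (log2 -1.54, SE 0.28, edgeR adjusted p = 0.00527). With CpG it was at 9.48 to 14.8 and 4.61 to 5.81 CPM (log2 -1.28, SE 0.27, edgeR adjusted p = 0.0173), where 2.21% of all genes were called lower. Parp3 lies on chromosome 9, as does Rab27a. Whether its position has a part in the Parp3 difference was not tested.

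**Figure D5:**
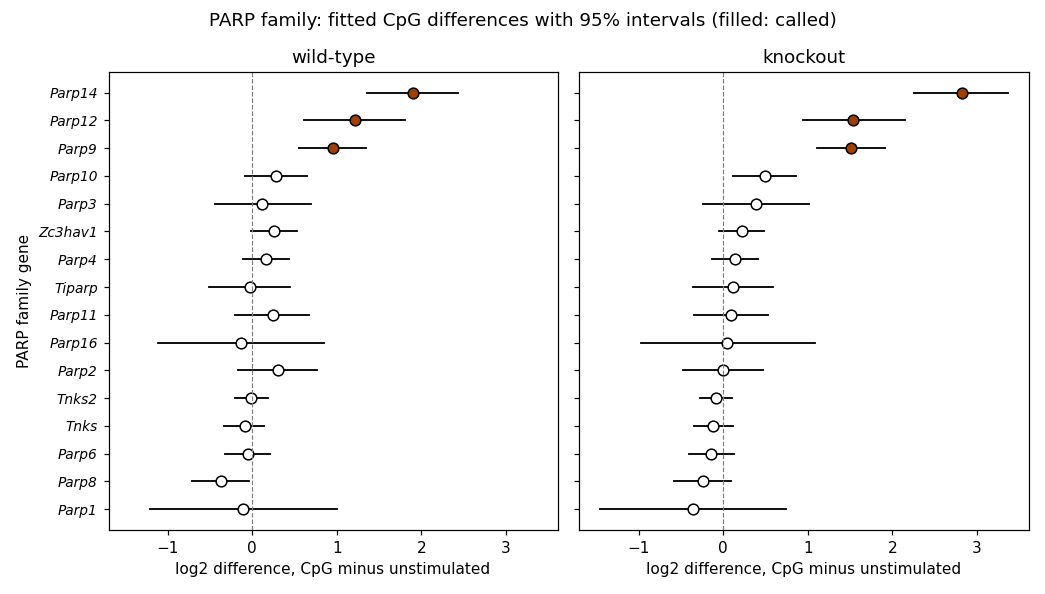
Fitted log2 difference after CpG of the 16 PARP family genes in wild-type (left) and knockout (right) cells, with lines for 95% intervals, ordered by the knockout estimate. Filled points passed an edgeR adjusted p of 0.05; Parp14, Parp12 and Parp9 passed in each genotype and the other 13 did not.

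Among other genes of the pathway, 2 of 5 Deltex ligase genes rose in each genotype. They were Dtx3l and Dtx2 (log2 0.70, edgeR adjusted p = 0.0142 in wild-type; 0.54, edgeR adjusted p = 0.0342 in knockout), a ligase that acts on Notch signaling. Of 10 tested genes that supply or use NAD, 2 rose in each genotype. These were Nadk, the kinase that makes NADP (log2 0.96 and 1.35), and Nampt, the rate-limiting enzyme of NAD salvage (log2 0.54 and 0.43). None of the 8 tested genes that remove or read ADP-ribose and none of the 11 DNA repair partners of Parp1, a list that holds Parp1 itself, was called by edgeR after CpG in either genotype. Of all genes, 4.74% were called higher in wild-type and 7.57% in knockout cells. With lists this short, a count of 0 cannot be told apart from those shares. At an unadjusted p under 0.05 these lists held 1 gene each in wild-type cells, Xrcc1 in both lists, and 2 and 0 genes in knockout cells. The share of all genes under that p is not given here for the CpG comparisons.

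Interferon signaling genes rose in part. In wild-type cells 8 of 15 tested genes rose, with a median of log2 0.72, and in knockout cells 10 of 15, with a median of 0.95. The kinase gene Tyk2 rose by log2 1.48 and 2.17, and Usp18, an inhibitor of the interferon receptor, by 1.67 and 2.57. Stat2 rose by 0.98 and 1.49 and the transcription factor Irf1 by 0.68 and 1.55. These sizes can be set beside 1.90 and 2.82 for Parp14. The interferon gene Ifnb1 had 2 counts over the 12 libraries together and was not tested. None of the 15 genes passed the edgeR test between genotypes, where 1 had an unadjusted p under 0.05 without CpG and 8 with it. The share of all genes under that unadjusted p is not given here for these comparisons, so neither count is set against it.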

How the data were processed

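PolyA RNA-seq of 12 mouse neutrophil libraries was used, with 3 in each of 4 groups taken from the sample labels. Estimated counts per RefSeq transcript and TPM values (scaled to a fixed sum per library) were made by the authors and used as deposited. The submitters' processing notes list Bowtie2 and RSEM 1.2.28 with build GRCm39, with no roles or order. Summing transcripts by gene and rounding gave 15986 genes, of which 15883 matched a symbol. Symbols came from RefSeq GRCm38.p6, used for names, neighbors and promoter windows. Genes were kept by filterByExpr (smallest count 10, smallest total 15), leaving 10802. A quasi-likelihood model with 4 group means was fitted to all 12 libraries, scaled by TMM, in edgeR 4.0.16 (R 4.3.3), with Benjamini-Hochberg adjustment over all genes tested. CPM values use the same scaling, and TPM entered no such test. On simulated counts for the wild-type CpG comparison (10644 genes), 80.8% of 2-fold and 100% of 4-fold changes were recovered. The simulated counts had the same spread for every gene, so these rates need not hold for genes with a wider spread, such as Parp1.

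The members, lists and comparisons were chosen with earlier results of these data known. All members were named, with up to 4 called genes of largest change per pathway list and the 3 genes most like each member. Sarm1, a gene of the NAD list, was not analysed here, and 1 gene that the naming rule picks is not reported here. Library numbers follow the genotype in the labels. Same-numbered libraries deviated together in wild-type cells (correlations 0.28, 0.41 and 0.44) and less evenly in the knockout (0.62, 0.09 and 0.68). The fit with genotype and number as a block is therefore given beside the main results for wild-type cells only. Its values for the knockout and for the interaction are given in the last section. Alternatives covered scaling, filters, DESeq2 1.42.0, a robust fit, curated transcripts, blocks and left-out libraries.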

Additional observations from a re-analysis of the deposited data

How the results depend on the processing

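Over all alternatives, 676 values of the members stayed on their side of the threshold, 21 lost a call and 5 gained one. No called difference changed sign, whereas some differences near 0 that were not called did. Leaving out a library left a group with 2, whose spread was pooled with the other groups. The wild-type CpG comparison called 2 to 4 members and 425 to 758 genes in all with a library left out, 425 genes with curated transcripts and 1824 with the replicate block by genotype and number. The knockout CpG comparison called 4 to 5 members and 818 to 1347 genes with a library left out; with that block it called 2591 genes and 5 members, as Parp10 passed (log2 0.48, edgeR adjusted p = 0.00991). The knockout difference of Parp1 was then -0.37 (95% interval -0.69 to -0.05, edgeR adjusted p = 0.0946). With the number as a block over both genotypes, 4 members were called in each. Every library correlated best with its own number. Between unstimulated genotypes, 513 genes were called, and 283 with curated transcripts, 782 with DESeq2, 278 to 604 with a library left out and 341 without both knockout libraries numbered 1. Between genotypes with CpG, 0 members were called with library size scaling, a robust fit, curated transcripts, the compared libraries alone or without both knockout libraries numbered 3, 2 with DESeq2 or without both numbered 1, and 0 to 1 with a library left out. In all genes, 423 became 227 with curated transcripts, 253 with the compared libraries alone, 734 with DESeq2, 234 to 699 with a library left out and 824 without both numbered 3. The interaction called 13 genes with that block and 3 with DESeq2, none of them a member. The Parp9 to Dtx3l difference ran from -0.28 to -0.17 with a library left out. The causes of these shifts were not tested. Parp1 rests on 38 to 270 counts per library, and its SE fell from 0.51 to 0.14 in wild-type cells with that block at the same depth.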
